A study of Zea mays with 24 samples.

Results

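The genes described here are 40 maize (Zea mays) genes whose transcript level was far higher in cultivar ST than in cultivar SS in both tissues and under both treatments. They were chosen by their measured levels, as the Zm00001d features for which the log2 ratio of mean ST to mean SS FPKM, with 1 added to each mean, was at least 4 in all 4 combinations of tissue and treatment, and which had a value above 0 in at least 1 SS library. FPKM is the fragment count of a feature scaled to its length and to the library total, and a log2 ratio of 4 is 16-fold. Of 50202 features measured, 44146 carry a Zm00001d identifier, 33339 of these had reads in at least 1 SS library, and 40 met the rule. Another 6 features passed the ratios but had 0 in every SS library, and are not included. The opposite rule, far higher in SS throughout, was met by 53 features.

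The libraries came from young shoots and roots of seedlings that received a 100 mM salinity solution or water at the 3-leaf stage. The groups were ST shoot salinity, ST shoot water, ST root salinity, ST root water, SS shoot salinity, SS shoot water, SS root salinity and SS root water, with 3 libraries each and 24 in all. All seedlings grew under normal conditions before treatment, and the series calls the libraries of a group biological replicates. The length of the treatment and the meaning of the names ST and SS are not given in the sources used here.

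Maize cultivars are known to differ widely in which genes they carry, in regulatory sequence, and in coding sequence, and each of these can set the level of a transcript apart between cultivars in every organ. RNA-seq levels obtained by alignment to 1 reference genome count only reads that align to that reference, so a diverged allele can also be counted at a lower level. Cultivar genomes were not analysed here, and the part that presence, sequence or regulation of a gene plays in these levels was not tested.

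None of the 40 identifiers was matched to a gene name, and the gene table used for names, which follows Zm-B73-REFERENCE-NAM-5.0, lists 0 of the 44146 Zm00001d identifiers. The files do not pair them with names either, so the genes are known by identifier only and no function is given. For the same reason the labelled tissues were not checked against named shoot or root markers.

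Library totals, recovered from the steps in the FPKM values, were 19747198 to 28825226 reads. At least 99.9993% of each total lay in the features, so these are totals of reads in features and not of all reads sequenced. Replicate libraries differed by more than sampling noise in every pair (chi-square over degrees of freedom 1.89 to 7.94).

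The contrast between cultivars chose these genes, so their levels in ST and SS are given as a description, with no test. In ST every member had reads in every library, with at least 164 reads and at least 14.7 FPKM. Levels in SS stayed at or below 17 reads per library, and 39 of the 40 members were below 1 FPKM in every SS library. Summed over the 40 genes, the level was 3005 to 3170 FPKM in ST shoots and 4587 to 4745 FPKM in ST roots, against 1.63 to 2.95 FPKM in SS shoots and 3.25 to 5.99 FPKM in SS roots. The genes took 0.210% to 0.228% of the recovered totals of ST shoot libraries and 0.300% to 0.322% of those of ST root libraries. In SS libraries of both tissues they took at most 0.00038%.

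Single ratios were rare in the series as a whole. Of the 33339 features with reads in SS, 0.273% passed a log2 ratio of 4 in shoots under salinity, 0.249% in shoots under water, 0.306% in roots under salinity and 0.252% in roots under water. The lowest of the 4 ratios of a member was at least 6 for 6 members, 5 to 6 for 8 and 4 to 5 for 26, and it fell in a shoot group for 31 of the 40.

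**Figure D1:**
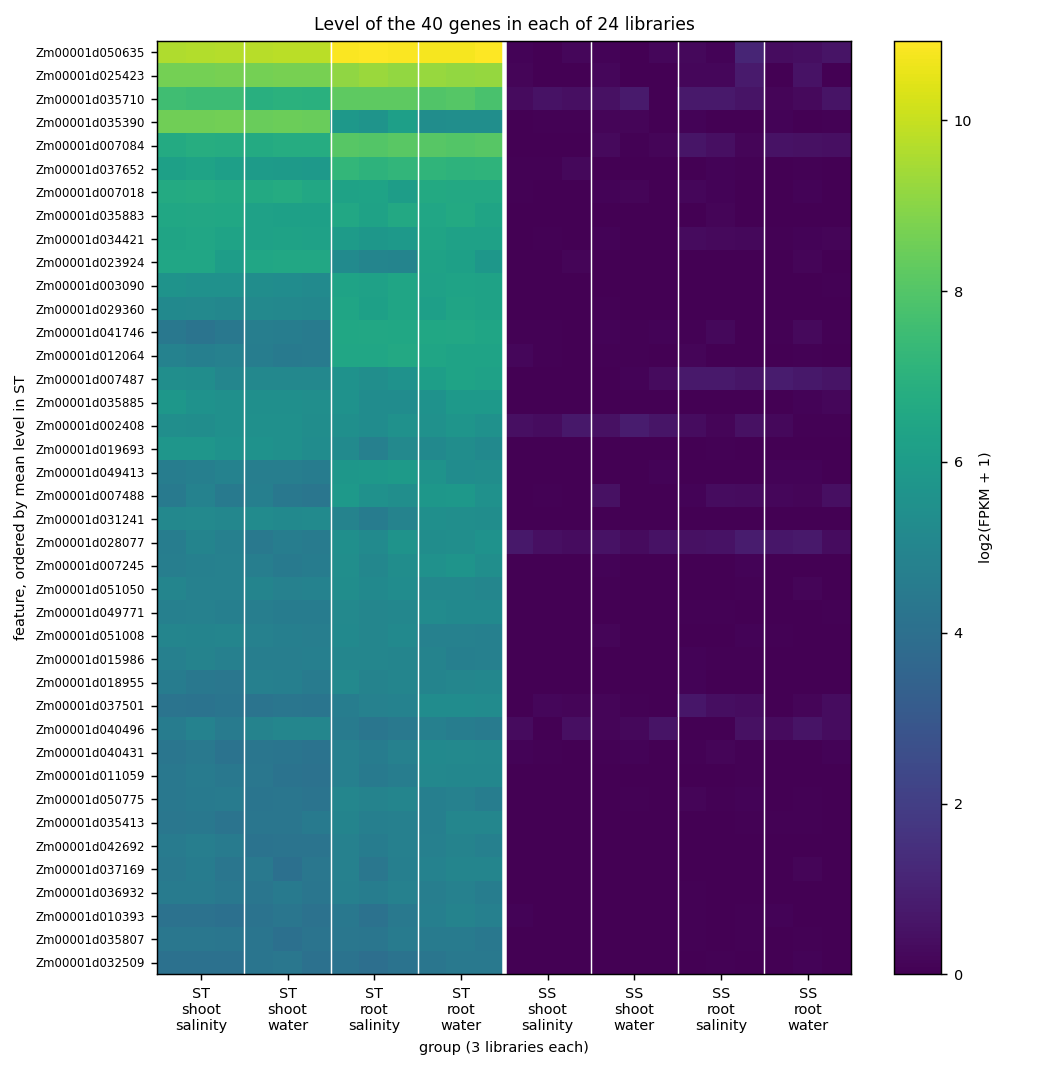
Level of each of the 40 genes (rows, ordered by mean level in ST) in each of the 24 libraries (columns, 3 per group, ST left and SS right), as log2(FPKM + 1) by colour. Every ST library holds all 40 genes at 14.7 FPKM or more, whereas the highest value of any SS library is 1.20 FPKM.

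By mean level over the 12 ST libraries, 6 genes lay above 100 FPKM, 8 between 50 and 100 FPKM and 26 below 50 FPKM, with a median of 35.4 FPKM. The most abundant was Zm00001d050635. It stood at 801, 825 and 849 FPKM in ST shoots under salinity, 874, 889 and 878 FPKM in ST shoots under water, 1841, 1907 and 1853 FPKM in ST roots under salinity and 1763, 1739 and 1953 FPKM in ST roots under water. In SS the same gene had 0 to 0.152 FPKM in shoots under salinity, 0 to 0.156 FPKM in shoots under water, 0.0745 to 1.20 FPKM in roots under salinity and 0.294 to 0.487 FPKM in roots under water. The library at 1.20 FPKM, SS root salinity replicate 3, held 15 of its 37 SS reads. Its log2 ratios of ST to SS ran from 9.59 to 10.38, the highest in the set, and ST and SS libraries were separated in every combination.

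Zm00001d025423, the shortest member at 282 bases, came next with a mean of 493 FPKM in ST and 0.145 FPKM in SS. Its ST levels were 400, 396 and 409 FPKM in shoots under salinity, 400, 410 and 418 FPKM in shoots under water, 550, 621 and 573 FPKM in roots under salinity and 599, 563 and 582 FPKM in roots under water. In the 12 SS libraries it had 12 reads in all, and 6 libraries had none. Zm00001d035710 averaged 212 FPKM in ST and 0.405 FPKM in SS, and Zm00001d035390 averaged 207 FPKM in ST and 0.0425 FPKM in SS.

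Replicate libraries of ST were close for these genes. The coefficient of variation within a group of 3 had a median of 5.34% over the members, taken as the median of the group medians, and a maximum of 19.9%. For 7867 other Zm00001d features with a mean ST level of at least 17.4 FPKM, the lowest mean of any member, the median was 4.61%. That median was taken over all features and groups together, so the medians are not computed alike.

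The reads left in SS were few. Over all 12 SS libraries a member had 1 to 84 reads, with a median of 8, and 26 members had 10 or fewer. Of the 160 combinations of member and SS group, 47 had 0 reads, 64 had 1 to 3 and 49 had more. Where all 3 libraries of a group had 0 reads, the upper limit was 0.0144 to 0.133 FPKM depending on the gene, at a floor of 3 reads over the group, which covers counting error only. In 6 members all SS reads came from 1 library, while 20 had reads in 6 or more SS libraries and 2 in all 12.

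The mean level in SS was 0.00641% to 1.42% of that in ST, with a median of 0.0549%, so the members did not share 1 fixed fraction. For 27 members it was under 0.1% and for 5 at least 0.5%. The genes with most SS signal relative to ST were Zm00001d028077 (1.42%) and Zm00001d040496 (0.928%). Zm00001d028077 also had the highest mean level in SS, 0.472 FPKM from 60 reads spread over all 12 libraries, at 3 to 8 reads in each. The lowest SS level relative to ST was that of Zm00001d019693 (0.00641%), with 1 SS read. Of the members with 1 SS read, Zm00001d035883 and Zm00001d029360 had the highest ST levels. Zm00001d035883 stood at 90.3, 93.7 and 89.6 FPKM in ST shoots under salinity and at 74.5, 74.1 and 72.8 FPKM in ST shoots under water. In ST roots it stood at 93.3, 77.3 and 95.7 FPKM under salinity and at 88.0, 99.0 and 82.2 FPKM under water. Its 1 SS read came from a root library under salinity, and the other 11 SS libraries were at 0.

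Across the 40 genes the mean level in SS followed that in ST only loosely, with a Spearman coefficient of 0.38. This is a description over 40 points that share the same libraries. The rule also cut on these ST and SS levels, which shapes the coefficient. SS roots gave more reads than SS shoots, with 245 member reads in SS shoots and 420 in SS roots. The recovered library totals summed to 157647628 and 140041828 reads. By gene, 8 members had more SS reads in shoots, 27 had more in roots and 5 had equal numbers. In ST the members had 318271 reads in shoots and 465543 in roots. Zm00001d002408, named after its values were seen, ran the other way in SS, with 64 reads in shoots and 20 in roots. Zm00001d007487 had 4 SS reads in shoots and 46 in roots.

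**Figure D2:**
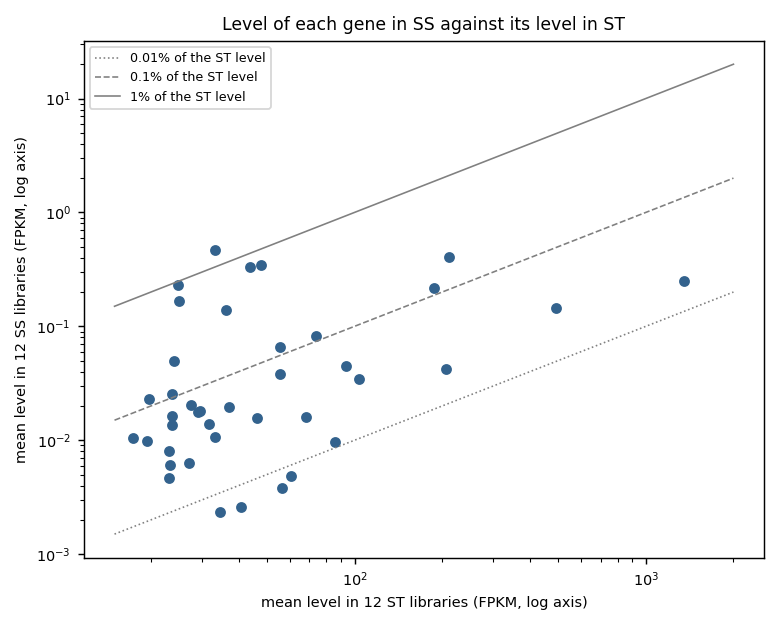
Mean level over 12 SS libraries (vertical, FPKM, log axis) against mean level over 12 ST libraries (horizontal, FPKM, log axis) for each of the 40 genes, with lines at fixed percentages of the ST level. The points spread between 0.00641% and 1.42% of the ST level, with a median of 0.0549%.

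At the edge of the rule, the lowest ratio inside was 4.05 for both Zm00001d028077, in shoots under water, and Zm00001d010393, in shoots under salinity. Zm00001d010393 had means of 15.9 FPKM in ST shoots under salinity and 0.0210 FPKM in SS shoots under salinity. Just outside lay Zm00001d000364, with a ratio of 3.95 in roots under water, and Zm00001d009298, with 3.93 in shoots under water. Their means in those groups were 18.3 FPKM in ST and 0.248 FPKM in SS for Zm00001d000364, and 14.2 FPKM in ST and 0 FPKM in SS for Zm00001d009298. These levels lie close to those of the genes just inside.

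The members' recovered lengths ran from 282 to 2714 bases with a median of 850 and quartiles of 585 and 1448.5 bases. The 7867 other features at or above 17.4 FPKM in ST had a median of 1366 and quartiles of 921 and 1933 bases. This is a description with no test.

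Most identifiers stood alone by number. Zm00001d007487 and Zm00001d007488 are consecutive, and Zm00001d035883 and Zm00001d035885 differ by 2; no other members lie within 5 of each other. Of 285 other features within 5 numbers of a member, 152 averaged at least 1 FPKM over all libraries. Among these 152, 6 (3.95%) had a log2 ratio of ST to SS of at least 1 in all 4 combinations, against 2.82% of 24039 such features, and 5 (3.29%) had one of -1 or lower in all 4, against 3.90%. These shares rest on 6 and 5 features and lie near those over all such features, so nothing is read from them. Neighbours averaging under 1 FPKM were left out. No coordinates are given, because the build named in the submitters' processing notes, B73 RefGen_v3, is older than the Zm00001d gene set.

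Whether these genes respond to salt in ST is a contrast the rule did not use, although the rule fixes a minimum level in every ST group and so limits how far a gene could fall. In ST roots 7 of the 40 genes rose and 14 fell under salinity, and 19 did not pass. The shares, 17.5% up and 35.0% down, stood beside 26.1% up and 19.7% down over all 27109 features tested (limma on log2(FPKM + 1), Benjamini-Hochberg adjusted p under 0.05). Features at lower levels are among these. Of 7743 other Zm00001d features with a mean ST level of at least 17.4 FPKM, 34.2% rose and 22.2% fell. Changes of the members were small, with a median of -0.09 on the log2 scale and a range of -1.06 to 0.47. The median over all features was 0.03. A single gene changed by 2-fold or more. All 40 members passed the filter on low values through their ST libraries.

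That gene was Zm00001d023924, which fell. Its level was 37.1, 30.1 and 29.3 FPKM in ST roots under salinity, against 77.3, 73.9 and 54.9 FPKM in ST roots under water. The groups did not overlap (log2 change -1.06, SE 0.12, limma adjusted p = 1.29e-05, n = 3 each). Zm00001d007487 also fell, with 47.3, 41.4 and 47.1 FPKM under salinity against 69.8, 80.0 and 74.4 FPKM under water (log2 change -0.71, SE 0.08, limma adjusted p = 1.47e-05).

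Among the genes that rose in ST roots, Zm00001d035390 changed most. It had 56.1, 48.8 and 70.1 FPKM under salinity, spread more widely than the 40.7, 41.6 and 41.7 FPKM under water (log2 change 0.47, SE 0.10, limma adjusted p = 0.00214). Zm00001d049413 had 53.8, 55.1 and 61.2 FPKM under salinity and 47.8, 38.5 and 40.5 FPKM under water (log2 change 0.42, SE 0.08, limma adjusted p = 0.00105). Neither pair of groups overlapped. The 2 most abundant members gave no call, with Zm00001d050635 at 0.04 (SE 0.19, limma adjusted p = 0.904) and Zm00001d025423 at -0.00 (SE 0.16, limma adjusted p = 1).

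In ST shoots the balance of calls was the other way round, with 12 genes up, 2 down and 26 not called. The shares were 30% up and 5.0% down, beside 18.9% up and 22.8% down over 24810 features tested. Of 7727 other Zm00001d features at or above 17.4 FPKM in ST, 25.6% rose and 31.2% fell, so the share of rises was closer to that of the members. The members' median change was 0.13 on the log2 scale, with a range of -0.33 to 0.59. The median over all features was -0.00, and no member changed by 2-fold.

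Zm00001d035710 rose most in ST shoots, at 192, 181 and 179 FPKM under salinity and 120, 126 and 120 FPKM under water (log2 change 0.59, SE 0.14, limma adjusted p = 0.00398, n = 3 each). Each salinity library lay above each water library. It rose in ST roots too, at 301, 295 and 293 FPKM under salinity and 250, 261 and 222 FPKM under water (log2 change 0.28, SE 0.10, limma adjusted p = 0.0295). Zm00001d042692, the longest member at 2714 bases, had 22.2, 24.3 and 22.3 FPKM in ST shoots under salinity and 17.2, 17.7 and 17.4 FPKM under water (log2 change 0.38, SE 0.06, limma adjusted p = 0.000156). Zm00001d041746 fell, at 19.6, 17.5 and 20 FPKM under salinity and 24.9, 23.6 and 22.6 FPKM under water (log2 change -0.30, SE 0.07, limma adjusted p = 0.00221). The other gene called as falling in ST shoots was Zm00001d018955, chosen for naming after its values were seen.

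These fits share 1 estimate of spread between the cultivars. By the median, the members vary less in SS, where they are near 0. The median SD within a group was 0.0547 to 0.110 in ST and 0.0181 to 0.0463 in SS on the log2(FPKM + 1) scale. Single members differ in this. The SE of Zm00001d025423 in roots was 0.16, against 0.07 with ST alone. For Zm00001d035710 in shoots it was 0.14, against 0.04. For Zm00001d023924 in roots it was 0.12, against 0.13. With the ST libraries of a tissue fitted alone, 7 genes rose and 12 fell in roots, and 17 rose and 5 fell in shoots. A pseudocount of 0.1 in place of 1 stretches the values near 0 in SS and left 0 up and 5 down in roots and 3 up and 0 down in shoots. With the ST libraries alone that pseudocount gave 7 and 12 in roots and 17 and 5 in shoots. In shoots the 12 rises were 7 without ST shoot water replicate 3, and the 2 falls were 1 without ST shoot salinity replicate 3 or without ST shoot water replicate 1 or 2. The pseudocount of 0.1 ended the calls of Zm00001d035390 and Zm00001d049413 in roots (limma adjusted p = 0.112 and 0.104) and of Zm00001d041746 and Zm00001d018955 in shoots (limma adjusted p = 0.114 and 0.124). Zm00001d010393, which fell in ST roots (log2 change -0.49, SE 0.08, limma adjusted p = 0.000345), also lost its call (limma adjusted p = 0.0557). That pseudocount also ended both calls of Zm00001d035710 (limma adjusted p = 0.43 in shoots and 0.424 in roots). With ST alone at a pseudocount of 1, both were kept (limma adjusted p = 1.46e-06 in shoots and 0.0127 in roots). So were those of Zm00001d035390 and Zm00001d010393 in roots (limma adjusted p = 0.00865 and 0.00188) and of Zm00001d041746 in shoots (limma adjusted p = 0.00238). Values of that fit for Zm00001d049413 and Zm00001d018955 are not given here.

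**Figure D3:**
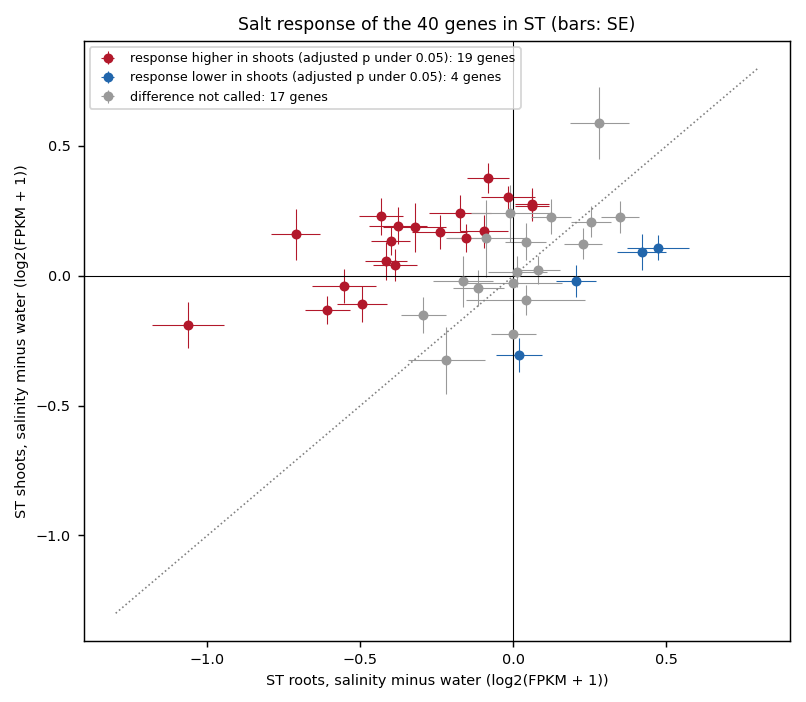
Change under salinity in ST shoots (vertical) against that in ST roots (horizontal), both as log2(FPKM + 1) with SE bars from limma, for the 40 genes; the dotted line marks equal responses. The 19 genes whose response, as a signed change, was called higher in shoots lie above the line and the 4 called lower lie below it.

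The difference between the responses of the tissues was tested directly within ST. The response here is the signed log2 change under salinity, so a fall in roots alone also makes it higher in shoots. It was higher in shoots than in roots for 19 genes and lower for 4, with 17 not called. These shares, 47.5% and 10%, stood beside 17.7% higher and 25.7% lower over 29127 features tested. Of 7867 other Zm00001d features at or above 17.4 FPKM in ST, 22.2% were higher and 36.3% lower. These others did not have to meet the minimum level that the rule fixes in every ST group. The lowest ratio fell in a shoot group for 31 of the 40 members, so shoots had the least room for a fall. How far this shapes the shares was not tested. The members' median difference was 0.23 on the log2 scale, against -0.04 over all features. By their separate calls, 12 genes fell in roots and were not called in shoots, 7 rose in shoots and were not called in roots, 3 rose in both, 4 rose in roots alone, 2 fell in shoots alone, 2 fell in roots and rose in shoots, and 10 had no call.

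The pair that fell in roots and rose in shoots, Zm00001d035885 and Zm00001d011059, was named after its values were seen. Zm00001d035885 changed by -0.38 in roots (limma adjusted p = 0.00588) and 0.19 in shoots (limma adjusted p = 0.0415). Zm00001d011059 changed by -0.43 in roots (limma adjusted p = 0.000291) and 0.23 in shoots (limma adjusted p = 0.0199). With a pseudocount of 0.1, Zm00001d035885 lost both calls (limma adjusted p = 0.203 in roots and 0.136 in shoots), and Zm00001d011059 kept that in roots (limma adjusted p = 0.0335) and lost that in shoots (limma adjusted p = 0.135). Among single genes, the difference was largest for Zm00001d023924 and Zm00001d007487. Zm00001d023924 had 86.4, 88.2 and 66.7 FPKM in ST shoots under salinity and 87.8, 92.9 and 92.7 FPKM under water, where it was not called. Its response was 0.88 higher in shoots than in roots (SE 0.16, limma adjusted p = 0.000102). Zm00001d007487 had 41.2, 40.6 and 31.4 FPKM in ST shoots under salinity and 33.4, 33.3 and 33.6 FPKM under water, groups that overlap. Its difference was 0.87 (SE 0.13, limma adjusted p = 1.54e-05). Zm00001d035390 and Zm00001d049413, which rose in roots, responded less in shoots. The difference was -0.36 for Zm00001d035390 (SE 0.11, limma adjusted p = 0.0131). For Zm00001d049413 it was -0.33 (SE 0.10, limma adjusted p = 0.0137). With a pseudocount of 0.1, 4 and 0 differences were called, and 18 and 4 with the ST groups fitted alone at that pseudocount. The calls of Zm00001d007487, Zm00001d035390 and Zm00001d049413 were among those lost (limma adjusted p = 0.0611, 0.451 and 0.383). At a pseudocount of 1, Zm00001d035710 had a difference of 0.31 and was not called (limma adjusted p = 0.19). It was called with the ST groups alone (limma adjusted p = 0.00773) and with voom (adjusted p = 0.0111).

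**Figure D4:**
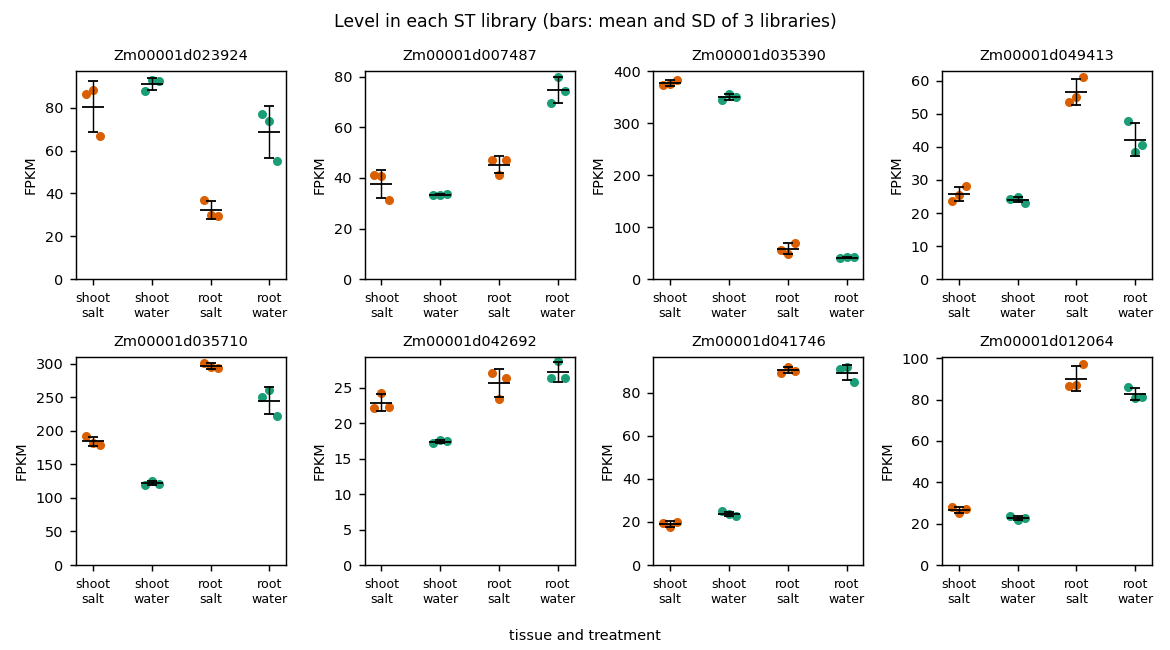
Level (FPKM, axes from 0) of 8 of the genes in each ST library, with the mean and SD of 3 libraries, for shoots and then roots, salinity left of water. Zm00001d023924 and Zm00001d007487 are lower under salinity in roots, and Zm00001d035710 is higher under salinity in both tissues.

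In SS the same contrast rests on a handful of reads. The members entered these tests only through their levels in ST, and with the SS groups alone none passes the filter on low values. Few calls were therefore possible, and the shares over all features are given as background from which nothing is read. Of the 40 genes, 2 rose and 0 fell in SS roots, beside 19.7% up and 19.0% down over all features, and 38 were not called. At an unadjusted p under 0.05 limma gave 3 up and 0 down, and limma's voom on recovered reads called 2 up and 1 down. The rises with limma were Zm00001d035710 and Zm00001d037501. With voom Zm00001d037501 kept its call (adjusted p = 0.0266) and Zm00001d035710 lost it (adjusted p = 0.133). Zm00001d037501, like the gene called in SS shoots, was named after its values were seen. Zm00001d035710 had 6, 7 and 5 reads in SS roots under salinity and 1, 2 and 5 under water, so the groups overlap (log2 change 0.34, SE 0.10, limma adjusted p = 0.0141). Zm00001d037501 had 11, 7 and 6 reads in SS roots under salinity and 0, 2 and 6 under water (log2 change 0.31, SE 0.10, limma adjusted p = 0.0301). In ST roots it fell, with a log2 change of -0.55 (SE 0.10, limma adjusted p = 0.000817), a call lost with a pseudocount of 0.1 (limma adjusted p = 0.253). The difference between cultivars was not tested. The 2 rises in SS roots were 0 without SS root water replicate 1 or 2 and 1 without SS root salinity replicate 1, and 2 genes fell without SS root salinity replicate 3. In SS shoots 0 genes rose and 1 fell, Zm00001d007084, beside 33.6% up and 23.0% down over all features. At an unadjusted p under 0.05 limma gave 0 up and 1 down, and voom called 1 up and 1 down. Zm00001d007084 had 0, 0 and 0 reads in SS shoots under salinity and 4, 1 and 2 under water. The call was kept without SS shoot water replicate 2 and lost without any other single library of these groups.

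Tissue was the other contrast outside the rule, although the rule's minimum level in every ST group limits how low a gene could be in either tissue. The other features set beside the members did not have to meet that minimum. In bulk samples, fewer cells of a type and less RNA per cell cannot be told apart. As deposited, 4 genes were higher in ST shoots than in ST roots under water, 31 were lower and 5 were not called, with shares of 10% and 77.5%. Over all 29127 features 21.5% were higher and 63.6% lower, and the median change was -0.59 for the members and -0.52 for all features. Of 7867 other Zm00001d features at or above 17.4 FPKM in ST, 28.8% were higher and 65.9% lower. Under salinity 7 genes were higher in shoots, 27 lower and 6 not called, shares of 17.5% and 67.5%, beside 21.2% and 63.6% over all features. The medians there were -0.28 for the members and -0.54 for all features. Of the 7867 others, 28.9% were higher and 65.5% lower under salinity.

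The direction of these counts depends on scaling. Median-of-ratios scaling brought the median of all features to -0.02 under both treatments. It then gave 18 members higher and 14 lower in shoots under water (37.5% and 41.3% of all features), and 26 higher and 7 lower under salinity (38.6% and 42.1%). The members' median was then 0.06 under water and 0.42 under salinity. With quantile scaling it was -0.19 under water, against -0.02 over all features, and 0.13 under salinity, against -0.00. Under water the members' median thus lay below that of all features as deposited and with quantile scaling, and above it with median-of-ratios scaling. Under water, the 4 genes higher in shoots as deposited were 2 without ST shoot water replicate 2 or ST root water replicate 3. The genes named next kept their direction and their call with median-of-ratios scaling, at other sizes.

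Zm00001d035390 was the most shoot-weighted member. It had 373, 375 and 384 FPKM in shoots under salinity against 56.1, 48.8 and 70.1 FPKM in roots under salinity, and 344, 356 and 350 FPKM in shoots under water against 40.7, 41.6 and 41.7 FPKM in roots under water. The tissues were far apart in all libraries, with a log2 difference of 2.69 under salinity (SE 0.08, limma adjusted p = 2.51e-18). Under water it was 3.05 (SE 0.08, limma adjusted p = 2.73e-19). The tissue fits share 1 estimate of spread with the SS libraries, where the members are near 0. With only the ST groups compared, the salinity difference of Zm00001d035390 had SE 0.11 (limma adjusted p = 1.91e-08). The water difference then had SE 0.04 (limma adjusted p = 3.50e-11). In SS the gene had 9 reads in all, 6 in shoots and 3 in roots. Zm00001d023924 followed, with a difference of 1.29 under salinity (SE 0.11, limma adjusted p = 3.38e-10). It was 0.42 under water (SE 0.11, limma adjusted p = 0.00142). With a pseudocount of 0.1 the call under water was lost (limma adjusted p = 0.109). With median-of-ratios scaling the differences of Zm00001d035390 were 3.40 under salinity and 3.72 under water, and those of Zm00001d023924 were 1.99 and 1.08.

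On the root side, Zm00001d041746 had 19.6, 17.5 and 20 FPKM in ST shoots under salinity and 89.4, 92.1 and 89.9 FPKM in ST roots under salinity. Under water it had 24.9, 23.6 and 22.6 FPKM in shoots and 91.0, 91.8 and 85.1 FPKM in roots. The differences were -2.19 under salinity (SE 0.07, limma adjusted p = 4.91e-18) and, for water, -1.87 (SE 0.07, limma adjusted p = 9.29e-17). Zm00001d012064 had 27.9, 25.2 and 27.2 FPKM in shoots under salinity against 86.6, 86.8 and 97.0 FPKM in roots under salinity, and 23.6, 21.8 and 22.7 FPKM in shoots under water against 86.0, 80.5 and 81.3 FPKM in roots under water. Its differences were -1.72 under salinity (SE 0.06, limma adjusted p = 1.09e-16) and, for water, -1.82 (SE 0.06, limma adjusted p = 4.00e-17). With only the ST groups compared, the limma adjusted p under salinity was 8.67e-10 for Zm00001d041746 and 7.41e-09 for Zm00001d012064. With median-of-ratios scaling the differences of Zm00001d041746 were -1.50 under salinity and -1.21 under water, and those of Zm00001d012064 were -1.01 and -1.16. As deposited, 1 gene was higher and 9 were lower in shoots by at least 2-fold under water, and 2 and 7 under salinity.

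**Figure D5:**
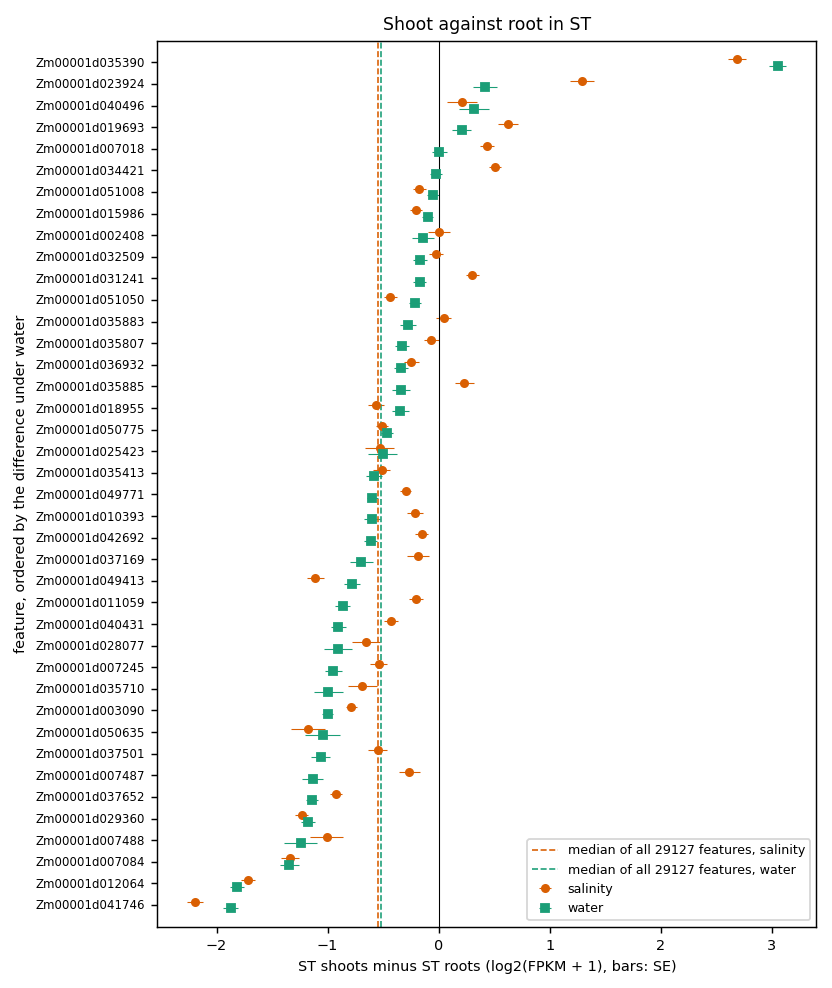
Difference between ST shoots and ST roots (log2(FPKM + 1), SE bars) for each of the 40 genes under salinity (circles) and water (squares), with dashed lines at the median of all 29127 features. Zm00001d035390 stands at 2.69 and 3.05, and Zm00001d041746 at -2.19 and -1.87, on either side of the medians of -0.54 and -0.52.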

How the data were processed

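RNA was measured by sequencing in 24 maize libraries, 3 in each of 8 groups. The authors deposited 1 file of FPKM values per library. The submitters' processing notes name TopHat2, Cufflinks and Cuffdiff, with no role or version, and B73 RefGen_v3; annotation and strand handling are not given in the sources used here. A feature length and library total were sought that turn each value into whole reads within 0.002 reads, which succeeded for 100% of 40811 features above 0; it is not stated if these are reads or fragments. Contrasts were fitted with limma 3.58.1 (R 4.3.3) on log2(FPKM + 1), per tissue over 12 libraries or over all 24, for features of at least 1 FPKM in at least 3 libraries of the fit, with Benjamini-Hochberg adjustment at 0.05. Fits and read recovery were tested on simulated data. Tables and figures used Python 3.11.15, pandas 2.3.3, numpy 2.4.6 and matplotlib 3.10.9. The fold changes understate changes of low genes.

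Members and lists were chosen with earlier results of these data known. Named genes were the 4 highest in ST, the 2 highest in SS, the 2 with most SS signal relative to ST and the 2 with fewest SS reads, the 2 just inside and 2 just outside the ratio, and up to 2 per direction with the largest change among those called in each ST contrast, with non-overlapping groups except for the difference of responses. Ties in SS reads were settled by the higher mean ST level. Alternatives covered pseudocount, filter, scaling, voom on recovered reads, the libraries fitted, a replicate block and each library left out.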

Additional observations from a re-analysis of the deposited data

Results flagged for a closer look

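The salt response within ST, as a signed log2 change, differed between the tissues by the test of the difference itself. It was higher in shoots for 19 genes and lower for 4. A higher value can come from a fall in roots, as for Zm00001d023924 and Zm00001d007487, which were not called in shoots. The rule's minimum level in every ST group limits how far a gene could fall, and its part in these counts was not tested. The differences on the log2 scale, shoot response minus root response, were 0.88 for Zm00001d023924 and 0.87 for Zm00001d007487. They were 0.66 for Zm00001d011059, 0.57 for Zm00001d035885 and 0.51 for Zm00001d037501, which were named after their values were seen. They were 0.46 for Zm00001d042692, 0.39 for Zm00001d010393 and 0.32 for Zm00001d035883. The signed change was lower in shoots for Zm00001d035390 at -0.36, Zm00001d049413 at -0.33 and Zm00001d041746, which fell in shoots, at -0.32. With a pseudocount of 0.1, the calls of Zm00001d023924, Zm00001d011059 and Zm00001d042692 were kept (limma adjusted p = 0.0437, 0.00712 and 0.0169), and those of the other 8 genes given here were lost (limma adjusted p = 0.0611 to 0.553).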

How the results depend on the processing

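The set held 40 genes as defined, and 38 to 41 with 1 library left out. It held 256 with a pseudocount of 0.1 in the ratio, 97 and 14 at log2 ratios of 3 and 5, and 20 where 6 SS libraries had to be above 0. Median-of-ratios scaling gave 45, of which 37 were among the 40. Counts below are genes called higher, then lower. In ST roots, 7 and 14 became 0 and 5 with a pseudocount of 0.1, and ran from 5 to 7 and from 11 to 14 over libraries left out. In ST shoots, 12 and 2 became 3 and 0 with that pseudocount; the lower calls were 1 without a filter and under either scaling, 4 with voom, and 5 with the ST groups alone at either pseudocount. They ran from 7 to 12 and from 1 to 3 over libraries left out. For the difference of responses, 19 and 4 became 4 and 0 with the pseudocount of 0.1, and ran from 16 to 19 and from 3 to 5. Fitting ST alone at that pseudocount, an alternative chosen after seeing the data, gave 18 and 4. That fit also changed the features tested, 26651 in place of 29127, and the part of the SS libraries in the loss was not tested. For shoots against roots under water, 4 and 31 became 1 and 24 with that pseudocount, 18 and 14 with median-of-ratios and 11 and 21 with quantile scaling, and ran from 2 to 3 and from 30 to 31. Under salinity, 7 and 27 became 26 and 7, and 20 and 11, with those scalings, and ran from 6 to 7 and from 25 to 28. In SS roots, 2 and 0 became 5 and 2 with the pseudocount of 0.1 and 2 and 1 with voom, and ran from 0 to 3 and from 0 to 2. In SS shoots, 0 and 1 became 1 and 3, and 1 and 1, and ran from 0 to 0 and from 0 to 1. Same-numbered libraries of the groups compared correlated by only -0.0949 to 0.0573. Between ST shoots under salinity and under water, at 0.0065 to 0.0573, the same number was the best match for every replicate. Whether the numbers pair the libraries there was not settled. A replicate block gave 7 and 12 in ST roots, 11 and 2 in ST shoots, and 0 and 0 in SS shoots. Levels in SS are limited by depth, at a median of 8 reads per gene over 12 libraries.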
